A study of Mus musculus with 6 samples.

Results

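The enzymes that turn farnesyl diphosphate into cholesterol through squalene were examined in mouse liver: Fdft1, Sqle, Lss, Cyp51, Tm7sf2, Msmo1, Ebp and Dhcr7. They were picked by gene symbol, and earlier results of these data were known when the set was drawn up. Each had 1 probe, so the set holds 8 of the 16887 genes on the array. Liver RNA of 6 C57BL/6 mice, aged 7 weeks, was hybridised on 2-colour arrays, 1 mouse per array, with 2 arrays for each of 3 groups. All 6 mice ate the HFC (high-fat cholesterol) diet, named a high fat diet in the sample titles, for 12 days. The fenofibrate mice received fenofibrate at 100 mg/kg and the lovastatin mice lovastatin at 30 mg/kg, by mouth once a day from day 5. The HFC mice received vehicle according to the design text, though the text of those samples does not mention it. Every array carried the same pool of liver RNA from 6 mice kept on standard chow, for which the design text also gives vehicle, so no chow mouse was measured alone. The design text describes 24 mice in 4 arms, and the mice beyond these arrays were not analysed here. The lovastatin group follows the sample titles, which the source names match, because the treatment description attached to it mentions fenofibrate at 100 mg/kg instead.

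Values are ratios of a mouse to the chow pool on a log scale. Base 2 was taken because the files give no base, and base e is not settled by the values. Mouse over pool is the likely direction, since each array's first channel in the labels is the mouse, but no source states it. The mouse was labelled with Cy3 on the fenofibrate arrays and with Cy5 on the lovastatin and HFC arrays, so a dye effect on a gene and the effect of fenofibrate cannot be told apart. Among unnamed controls spotted many times, the one lowest on lovastatin replicate 1 was read. It was at 4.83 and 4.95 on the fenofibrate arrays, -9.71 and -4.32 on the lovastatin arrays, and -4.20 and -5.84 on the HFC arrays. Its sign followed the dye, although on lovastatin replicate 1 the sign came with the choice. Values of the other repeated controls are not given here. The SD over all probes was 0.469 and 0.570 on the fenofibrate arrays, 1.09 and 0.420 on the lovastatin arrays, and 0.419 and 0.568 on the HFC arrays. On HFC replicate 2 the values of 4 blocks of array columns, with 50.3% of the probes used, are displaced along the rows. Each block was compared with the mean of HFC replicate 1, lovastatin replicate 2 and both fenofibrate arrays, without the sterol genes. As deposited, the correlation in the displaced blocks was between -0.0318 and 0.0247. After rotation by the best shift it was between 0.2442 and 0.2983, by choice the highest over all shifts. The second best shift gave 0.0238 to 0.0509, and the blocks not displaced gave 0.1583 to 0.3116 as deposited. Of the 8 genes, 6 lie in displaced blocks, and only Sqle and Ebp do not. Displaced spots were left out of the tests, and values with them put back are given where a call or the sign of a named value changes. A ratio in whole liver does not tell fewer cells of a type from less RNA per cell, and it does not give the level of a transcript.

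Cholesterol synthesis has an early arm, which runs from acetyl-CoA through mevalonate to farnesyl diphosphate, and a late arm, which is committed to sterols. Fdft1, squalene synthase, opens the late arm. Sqle, squalene epoxidase, oxidises squalene and is a rate-limiting step of the pathway, and Lss, lanosterol synthase, folds the product into the first sterol. Cyp51 and Tm7sf2 then remove a methyl group and reduce the double bond this leaves, Msmo1 oxidises the paired methyl groups at another carbon, Ebp moves a ring double bond, and Dhcr7 makes the final reduction to cholesterol. In liver these genes are known to be driven by SREBP2, a transcription factor that is held in the endoplasmic reticulum when cholesterol is plentiful. Lovastatin inhibits HMG-CoA reductase in the early arm, and fenofibrate activates PPARα, a nuclear receptor of fatty acid oxidation.

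SREBP2 is known to act at promoters together with NF-Y, which binds CCAAT boxes, and Sp1, which binds GC boxes. The RefSeq promoter table for GRCm38.p6, which covers 250 bases before to 50 after each annotated start, held 6 of the 8 genes, and Fdft1 and Sqle were not among them. The 180 bases before the start are shown for Msmo1 and Dhcr7, which had the lowest ratios of these 6, and for Cyp51 and Ebp, which had the highest with displaced spots left out (put back, Lss was above Cyp51). Capitals mark CCAAT read on either strand.
Msmo1, chr8:64733579-64733758, minus strand: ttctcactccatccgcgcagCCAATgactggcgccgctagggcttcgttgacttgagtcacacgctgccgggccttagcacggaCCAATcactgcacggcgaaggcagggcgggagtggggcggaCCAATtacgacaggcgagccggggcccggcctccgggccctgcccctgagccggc
Dhcr7, chr7:143830034-143830213, plus strand: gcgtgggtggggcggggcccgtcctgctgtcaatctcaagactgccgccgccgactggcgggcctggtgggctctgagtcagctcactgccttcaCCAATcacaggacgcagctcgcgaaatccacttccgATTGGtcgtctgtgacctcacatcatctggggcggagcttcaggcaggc
Cyp51, chr5:4104698-4104877, minus strand: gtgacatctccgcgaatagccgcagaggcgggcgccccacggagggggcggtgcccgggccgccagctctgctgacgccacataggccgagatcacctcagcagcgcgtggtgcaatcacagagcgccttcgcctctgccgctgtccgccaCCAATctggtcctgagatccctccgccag
Ebp, chrX:8193513-8193692, minus strand: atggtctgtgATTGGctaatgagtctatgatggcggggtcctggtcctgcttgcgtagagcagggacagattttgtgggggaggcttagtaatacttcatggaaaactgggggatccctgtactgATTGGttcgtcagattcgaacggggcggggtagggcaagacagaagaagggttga
The Dhcr7 window belongs to the downstream-most of 3 annotated starts. CCAAT begins at -160, -96 and -55 from the start of Msmo1, at -85 and -49 in Dhcr7, at -29 in Cyp51, and at -170 and -55 in Ebp. In Lss it begins at -62 and in Tm7sf2 at -47. All 6 genes had at least 1 CCAAT on either strand, against 37.4% of the 32851 promoters in the table, although only 1 of the 3 Dhcr7 starts did. At least 2 copies, as in Msmo1, Dhcr7 and Ebp, were found in 11.7% of promoters. The GC box GGGCGG, searched on both strands, was also present in all 6 genes, against 35.7% of promoters. In Dhcr7, 2 of the 3 starts had it. A sterol regulatory element-like motif, TCACNCCAC on both strands, was in 0 of the 6 and in 1.24% of promoters. No match overlapped another. A match is a run of letters in a window. Ebp, with 2 CCAAT copies, had the smallest fall of the 8, and a link between the number of copies and the ratios was not tested.

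The first question was whether the late arm differed in HFC-fed livers from the chow pool, whatever the drug. With the displaced spots left out, all 8 genes lay below 0 on every array with a value, against 7.12% of all features with a value on 5 or more arrays. For 6 of the 8 this leaves out HFC replicate 2, where Lss alone lies above 0 when put back, at 0.20. With both dye orientations weighted equally, the ratios ran from -3.81 in Sqle to -1.20 in Ebp with a median of -2.2, against 0.0075 over all features. Read as log2, the extremes correspond to 14.0-fold and 2.30-fold lower. By limma, with Benjamini-Hochberg adjustment over all features, 6 of the 8 genes fell, against 0.566% of all features called in either direction and 0.396% called lower. All 8 had an unadjusted p under 0.05, against 10.8% of features.

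**Figure D1:**
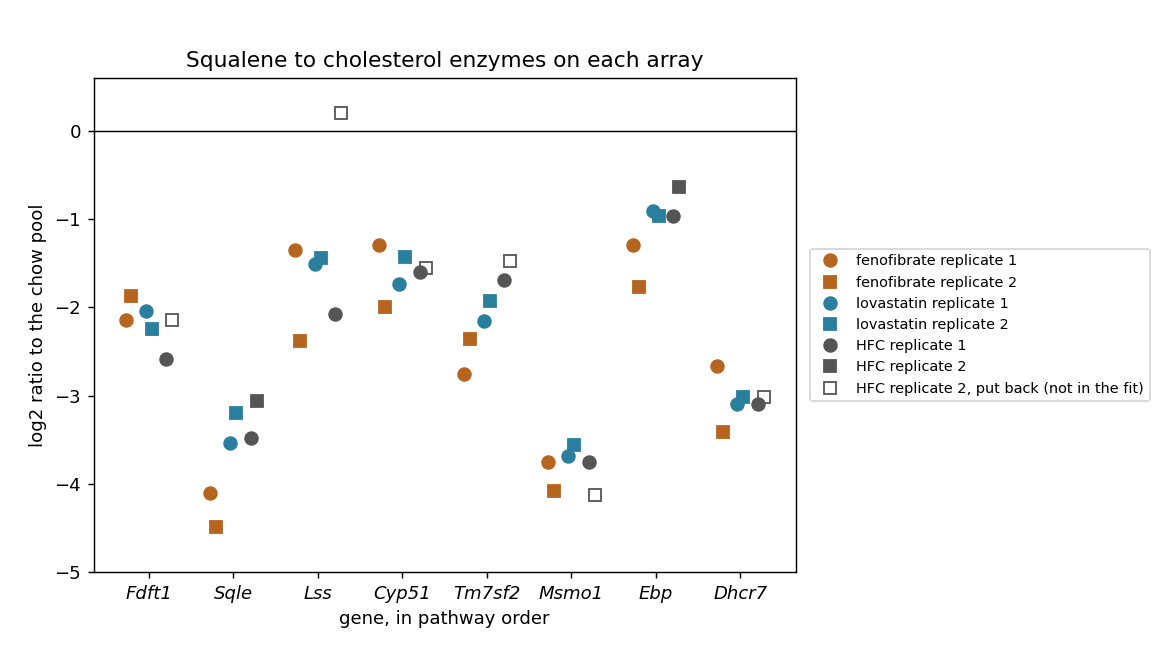
Log2 ratio to the chow pool (y axis) of each enzyme gene in pathway order (x axis), with 1 point per array and filled points used in the tests. Open squares are the put-back values of HFC replicate 2, which lie among or near the other arrays for 5 of 6 genes and at 0.20 for Lss.

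Fdft1, which joins farnesyl diphosphates into squalene (chr14:63145150-63181687, GRCm38.p6), read -2.14 and -1.87 on the fenofibrate arrays, -2.04 and -2.24 on the lovastatin arrays and -2.58 on HFC replicate 1. The fenofibrate and lovastatin arrays overlapped, and HFC replicate 1 was the lowest. Fdft1 fell by 2.18 (SE 0.13, limma adjusted p = 0.0209). On HFC replicate 2 it reads 0.86 as deposited and -2.14 put back.

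Sqle (chr15:59315092-59331193) read -4.10 and -4.49 on the fenofibrate arrays, -3.54 and -3.20 on the lovastatin arrays, and -3.48 and -3.06 on the HFC arrays. It is 1 of the 2 genes measured on all 6 arrays, and both fenofibrate arrays were below the other 4. Sqle fell by 3.81 (SE 0.133, limma adjusted p = 0.00795), the largest fall of the 8 with the displaced spots left out. Put back, Msmo1 was lower (-3.85). On each array at most 0.0894% of features were lower than Sqle.

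Lss (chr10:76531565-76557139) read -1.35 and -2.38 on the fenofibrate arrays, -1.51 and -1.44 on the lovastatin arrays and -2.08 on HFC replicate 1. The lovastatin arrays lay close together, whereas the fenofibrate arrays were 1.03 apart, the widest gap between replicates among the 8 genes. Lss did not pass (-1.82, SE 0.202, limma adjusted p = 0.0696). It is also the 1 gene whose displaced value did not return to the others: HFC replicate 2 reads 0.24 as deposited and 0.20 put back, and with the put-back value the ratio was -1.54 (limma adjusted p = 0.149).

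Cyp51 (chr5:4080674-4104697), the lanosterol demethylase, read -1.29 and -2.00 on the fenofibrate arrays, -1.73 and -1.43 on the lovastatin arrays and -1.60 on HFC replicate 1. All 3 groups overlapped, and their means were -1.65 ± 0.502 in fenofibrate and -1.58 ± 0.212 in lovastatin livers (SD, n = 2 each), beside the single HFC value. Cyp51 did not pass with the displaced spot left out (-1.62, SE 0.170, limma adjusted p = 0.0602). It passed with HFC replicate 2, 0.29 as deposited, put back at -1.55 (limma adjusted p = 0.0133). The next enzyme, the sterol reductase Tm7sf2 (chr19:6062821-6067850), read -2.75 and -2.36 on the fenofibrate arrays, -2.15 and -1.93 on the lovastatin arrays and -1.69 on HFC replicate 1. Its groups did not overlap, with fenofibrate lowest and HFC, here 1 array, highest. Over all features, 12.9% had both fenofibrate arrays below every lovastatin and HFC array. Tm7sf2 fell by 2.21 (SE 0.138, limma adjusted p = 0.0218), and its HFC replicate 2 value is 0.30 as deposited and -1.48 put back.

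Msmo1 (chr8:64718123-64733578), the methylsterol monooxygenase, read -3.75 and -4.08 on the fenofibrate arrays, -3.68 and -3.56 on the lovastatin arrays and -3.75 on HFC replicate 1. The fenofibrate and HFC values met at -3.75, both lovastatin arrays were slightly higher, and at most 0.0683% of features were lower on any array. It fell by 3.80 (SE 0.131, limma adjusted p = 0.00795). As deposited, HFC replicate 2 reads -0.02, and put back -4.13.

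Ebp (chrX:8185329-8193512), the sterol isomerase, read -1.29 and -1.77 on the fenofibrate arrays, -0.91 and -0.97 on the lovastatin arrays, and -0.97 and -0.64 on the HFC arrays. It was the least lowered of the 8, with the fenofibrate arrays below the other 4. Ebp fell by 1.20 (SE 0.126, limma adjusted p = 0.0377). Its place among all features varied most, from 0.80% of features lower on fenofibrate replicate 2 to 15.3% on lovastatin replicate 1, the array with the widest spread.

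Dhcr7 (chr7:143823167-143848410), the last enzyme, read -2.66 and -3.41 on the fenofibrate arrays, -3.10 and -3.02 on the lovastatin arrays and -3.10 on HFC replicate 1. The lovastatin and HFC values lay between the fenofibrate ones. Dhcr7 fell by 3.06 (SE 0.168, limma adjusted p = 0.0198), and at most 0.337% of features were lower on any array. Its HFC replicate 2 value is -0.29 as deposited and -3.02 put back.

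With the displaced spots put back 7 of the 8 genes fell, Lss being the exception, against 0.987% of all features, and with the values as deposited only Sqle and Ebp fell, against 0.344%. The calls rested on single arrays: with either fenofibrate array (replicate 1 or 2) left out they were lost, as were those of all other features. The call count was lower with HFC replicate 2 left out, and higher with either lovastatin array left out. The share of all features called moved the same way. Without HFC replicate 1 only Sqle and Ebp can be measured, and 1 of them, Sqle, fell (0.0499% of features). It was 2 without both HFC replicate 2, the array with displaced blocks, and lovastatin replicate 1, the array with the widest spread (0.113%). Over all settings tried the ratio stayed between -3.91 and -3.66 in Sqle, between -3.88 and -3.33 in Msmo1 and between -1.32 and -1.08 in Ebp.

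**Figure D2:**
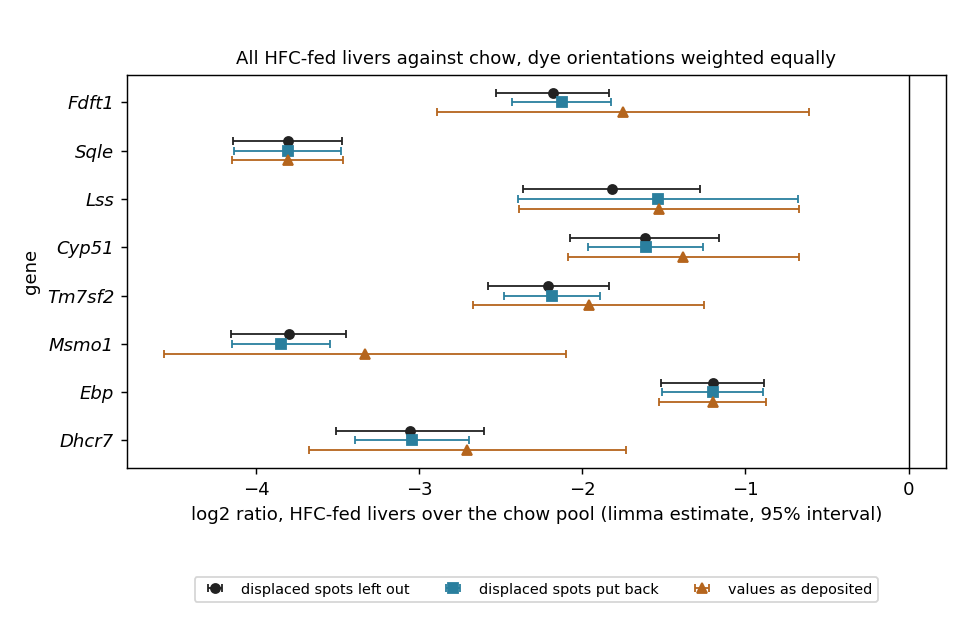
Ratio of all HFC-fed livers to the chow pool on the log2 scale (x axis), with limma estimates and 95% intervals for each gene (rows), with the displaced spots of HFC replicate 2 left out, put back or as deposited. Sqle and Ebp lie outside the displaced blocks and hardly move, and the as-deposited intervals of Fdft1 and Msmo1 are wide.

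Ratios to one pool can be compared between genes as differences, not as levels. Over the 5 arrays with all 8 genes, Sqle and Msmo1 kept no fixed order (mean difference 0.002 ± 0.358, SD, n = 5). Sqle was the lower of the pair on 2 of 5 arrays, the fenofibrate arrays. Msmo1 was the lower on both lovastatin arrays and HFC replicate 1, so the order followed the drug and dye group. Msmo1 was below Dhcr7 on 5 of 5 arrays, by 0.54 to 1.09. Dhcr7 was below Tm7sf2 on 4 of 5. Tm7sf2 and Fdft1 kept no fixed order either (mean difference -0.002 ± 0.615, SD, n = 5). Tm7sf2 was the lower on 3 of 5 arrays, namely both fenofibrate arrays and lovastatin replicate 1. Fdft1 and Lss, Lss and Cyp51, and Cyp51 and Ebp kept their order on 4 of 5 arrays each. With the displaced spots left out, the low genes were the second, the sixth and the last in pathway order. The high ones, Cyp51 and Ebp, stood between them, and put back, Lss (-1.54) was above Cyp51 (-1.61). A link between the position of an enzyme and its ratio was not tested.

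Within each group all 8 genes had a mean below 0. In fenofibrate livers Sqle (-4.30 ± 0.276) and Msmo1 (-3.92 ± 0.233, SD, n = 2 each) fell, both at limma adjusted p = 0.0497, which makes 2 of 8 against 0.0616% of all features called in either direction and 0.0514% called lower. All 8 had an unadjusted p under 0.05, against 7.63% of features. The median of the 8 was -2.28, against -0.005 over all features. With the displaced spots put back, which changes the spread shared by the groups, Dhcr7 and Tm7sf2 fell too (limma adjusted p = 0.0312 each), 4 of 8 against 0.164% of all features. The count was 0 with single probes, a robust prior or the compared arrays alone, where 0.0% of all features were called. With either fenofibrate array or either HFC array left out the calls were lost too, over all features alike.

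In lovastatin livers the 8 genes ran from -3.62 ± 0.0849 in Msmo1 to -0.94 ± 0.0424 in Ebp (SD, n = 2), with a median of -2.09, against -0.01 over all features. By limma 0 of 8 passed (adjusted p from 0.0955 to 0.415), against 0.0% of all features, while 8 of 8 had an unadjusted p under 0.05, against 10.6% of features. The count was 1, Msmo1, with the displaced spots put back, against 0.0103% of all features. It was 6 without lovastatin replicate 2, where 4016 of 19020 features (21.1%) were called. Replicates were closer for these genes than over all features only on the lovastatin arrays. There the median gap was 0.16 over the 8 genes and 0.49 over all features, and lovastatin replicate 1 had the widest spread. On the fenofibrate arrays it was 0.435 over the 8 genes and 0.28 over all features. On the HFC arrays it was 0.375 over the 2 genes measured on both, Sqle and Ebp, and 0.33 over all features.

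In HFC livers without a drug the ratios ran from -3.75 in Msmo1, measured on 1 array, to -0.81 ± 0.233 in Ebp (SD, n = 2). Sqle averaged -3.27 ± 0.297 (SD, n = 2). The median of the 8 was -2.33, against 0.01 over all features. By limma 0 of 8 passed (adjusted p from 0.152 to 0.814), against 0.0% of all features, and 8 of 8 had an unadjusted p under 0.05, against 4.73% of features. With the displaced spots put back Msmo1 fell (-3.94, limma adjusted p = 0.0409), 1 of 8 against 0.0154% of all features. The median was then -1.97, and 7 of 8 genes had an unadjusted p under 0.05, against 6.69% of features. Each ratio against the pool leaves out the spread between chow mice.

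The drug comparisons asked whether lovastatin or fenofibrate changed the late arm in mice already on the diet. Neither did so past the threshold in any of the 8 genes. The 95% intervals reached a median of 0.946 on either side for each drug against HFC, and 0.782 for fenofibrate against lovastatin. For fenofibrate against HFC, limma called 0 of 8 genes, against 0.0% of all features, and 1 of 8 had an unadjusted p under 0.05, against 2.88% of features. Sqle differed by -1.03 (95% interval -1.80 to -0.25, limma adjusted p = 1), Tm7sf2 by -0.87 (-1.84 to 0.11) and Ebp by -0.73 (-1.46 to 0.0055). The other 5 genes differed by -0.17 to 0.58. With the displaced spots put back 0 of 8 passed again, but 3 of 8, Sqle, Tm7sf2 (-0.97, 95% interval -1.65 to -0.29) and Ebp (-0.73, -1.44 to -0.0051), had an unadjusted p under 0.05, against 3.99% of features. Lss, at 0.22 with its displaced spot left out, turned to -0.93 (-2.90 to 1.05) and Msmo1, at -0.17, to 0.025. Against lovastatin, fenofibrate livers were at -0.93 for Sqle (95% interval -1.70 to -0.15), -0.59 for Ebp and -0.52 for Tm7sf2, with the other 5 genes at -0.39 to 0.14. Limma called 0 of 8 there (adjusted p from 0.700 to 0.984), against 0.0% of all features, and 1 of 8 had an unadjusted p under 0.05, against 5.55% of features.

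Sqle, Tm7sf2 and Ebp were the 3 of 8 genes in which both fenofibrate arrays lay below every lovastatin and HFC array. Over all features 12.9% did so and 11.8% lay above. Fenofibrate arrays also carry the mouse in the other dye, and drug and dye cannot be told apart in these 3 genes.

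For lovastatin against HFC, both in Cy5, the differences ran from -0.35 in Tm7sf2 (95% interval -1.32 to 0.62) to 0.61 in Lss (-0.81 to 2.02), with a median of 0.03, against -0.015 over all features. Sqle differed by -0.10 (-0.87 to 0.67) and Msmo1 by 0.13 (-0.79 to 1.05). Limma called 0 of 8 (adjusted p from 0.972 to 0.996), against 0.0% of all features, and 0 of 8 had an unadjusted p under 0.05, against 2.0% of features. After the displaced spots were put back, Lss turned to -0.54 (-2.51 to 1.44), Cyp51, at 0.02, to -0.005, and the median to -0.053. These intervals leave room for changes of up to 1.05 in Msmo1 and 2.02 in Lss, so equal ratios in both groups are not shown. The signs for Sqle, Ebp and Tm7sf2 turned with quantile normalization (0.42, 0.12 and 0.48). Without lovastatin replicate 2 the count of the 8 was still 0, although 7.37% of all features were called in this contrast and 11.8% in fenofibrate against lovastatin.

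**Figure D3:**
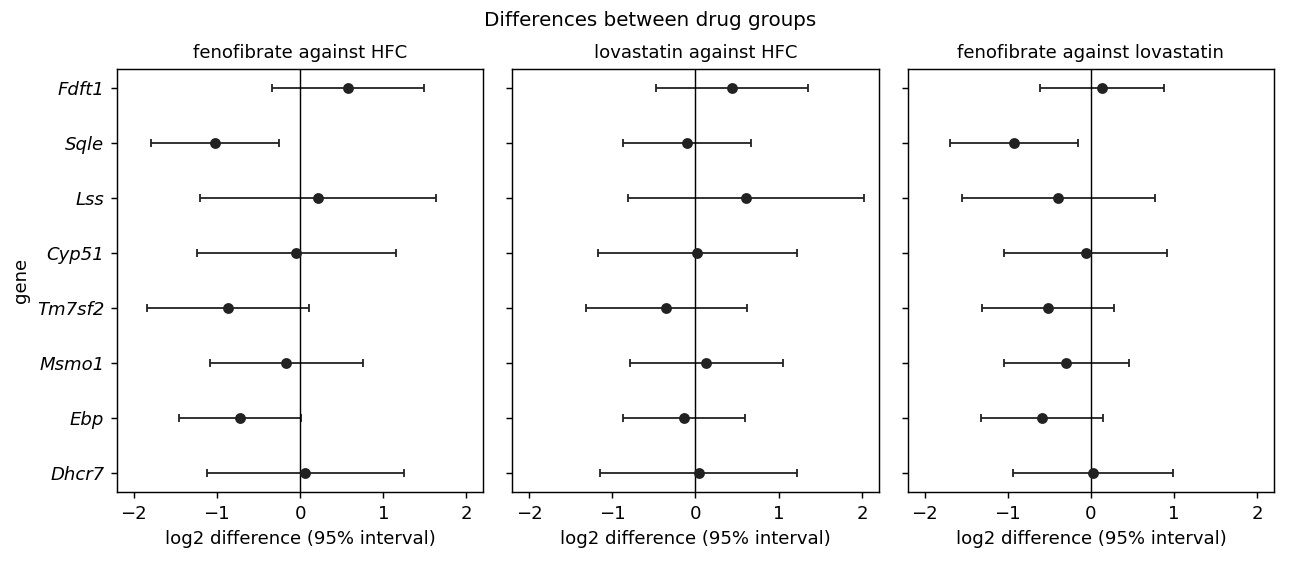
Differences between drug groups on the log2 scale (x axis) for each gene (rows), as limma estimates with 95% intervals, with fenofibrate against HFC, lovastatin against HFC and fenofibrate against lovastatin from left to right. Sqle is the gene whose interval lies below 0 in both fenofibrate panels, at -1.03 and -0.93.

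The rest of the sterol pathway was read from fixed lists in the same dye-balanced contrast. That contrast called 0.566% of all features, 0.396% lower, and 0.987% with the displaced spots put back. Of the other late enzymes, 3 of 4 were measured and 2 fell: the desaturase Sc5d (-2.14, limma adjusted p = 0.0251) and the ketoreductase Hsd17b7 (-2.03, limma adjusted p = 0.0251). The decarboxylating dehydrogenase Nsdhl was at -1.76 (limma adjusted p = 0.0770), and with the displaced spots put back all 3 fell, Nsdhl by 1.83 (limma adjusted p = 0.0244). Their median of -2.03 lay near the -2.2 of the 8 genes, against 0.0075 over all features.

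In the mevalonate arm 7 of 9 genes were measured and 4 fell. These were Idi1, isopentenyl diphosphate isomerase (-4.57, limma adjusted p = 0.00835), Fdps, farnesyl diphosphate synthase (-3.48, limma adjusted p = 0.00795), Hmgcs1, HMG-CoA synthase (-3.37, limma adjusted p = 0.00835), and Pmvk, phosphomevalonate kinase (-2.15, limma adjusted p = 0.0207). The arm had a median of -2.59. Put back, the displaced spots gave 5 falls, since Mvd, mevalonate diphosphate decarboxylase, was at -2.59 (limma adjusted p = 0.0517) without its spot and at -2.52 (limma adjusted p = 0.0135) with it. Ggps1, whose product leaves the sterol route for protein prenylation, stood at -0.049 (limma adjusted p = 0.912), and at 0.018 with its spot put back.

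Of the sterol sensing and uptake genes 5 of 8 were measured, with a median of -0.82. Insig2, which retains the SREBP complex in the endoplasmic reticulum, rose (1.32, limma adjusted p = 0.0218). Insig1, which has the same role, was at -1.86 (limma adjusted p = 0.0913), Srebf2, the gene of SREBP2, at -0.90 (limma adjusted p = 0.128) and Stard4, a sterol carrier, at -0.82 (limma adjusted p = 0.325). Of the branch and disposal genes 7 of 9 were measured, with a median of 0.145. Cyp8b1, the sterol hydroxylase of cholic acid synthesis (-2.85, limma adjusted p = 0.00795), and Cyp7a1, which opens bile acid synthesis (-2.09, limma adjusted p = 0.0119), fell, and Abcg5, an exporter of sterols into bile, rose (1.30, limma adjusted p = 0.0351). Abca1, a cholesterol efflux pump, was at 0.80 (limma adjusted p = 0.298), and Abcg8, also a sterol transporter, at 0.48 (limma adjusted p = 0.554).

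**Figure D4:**
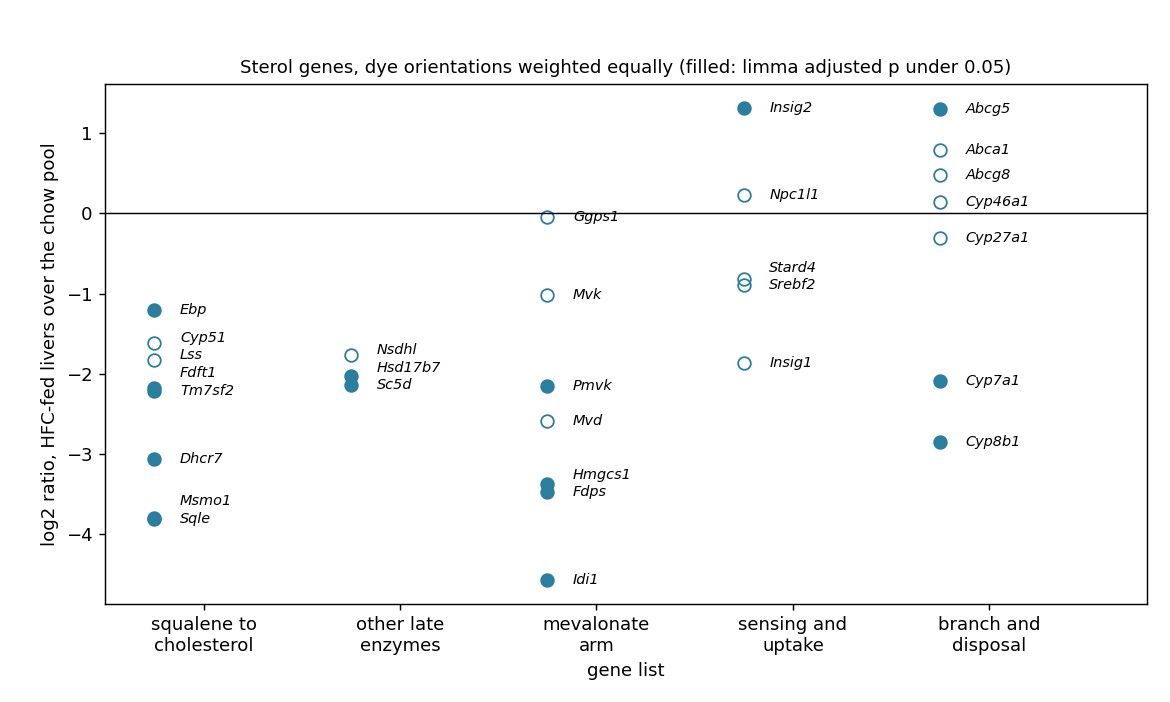
Ratio of all HFC-fed livers to the chow pool on the log2 scale (y axis) for every measured gene of 5 sterol gene lists (x axis), with filled points where limma's adjusted p is under 0.05. The squalene to cholesterol enzymes, the other late enzymes and the mevalonate arm all lie below 0, while the sensing and the disposal lists hold genes on both sides.

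The genes outside the 8 whose values lay nearest the median profile of the set were taken by root mean square difference over 5 or 6 arrays. That profile was -2.40 and -2.37 on the fenofibrate arrays, -2.10 and -2.09 on the lovastatin arrays, and -2.33 and -1.85 on the HFC arrays, where HFC replicate 2 rests on Sqle and Ebp alone. The 5 nearest were Acss2, the cytosolic acetyl-CoA synthetase (0.25 over 5 arrays), Dio1, a thyroid hormone deiodinase (0.264 over 6 arrays), Enho, which encodes the secreted peptide adropin (0.296 over 5 arrays), and the late enzymes Sc5d (0.301) and Hsd17b7 (0.340), over 5 arrays each. Dio1 read -2.37 and -2.44 on the fenofibrate arrays, -2.25 and -2.21 on the lovastatin arrays, and -2.35 and -2.46 on the HFC arrays. The distance is a description, since any gene about 2 log2 units below the pool on every array comes close.

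Marker genes of liver cell types were set beside these results, as ratios only. Of 8 hepatocyte markers 7 were measured, and their median was -0.63 and -0.80 on the fenofibrate arrays, -0.59 and -0.64 on the lovastatin arrays, and -0.72 and -0.36 on the HFC arrays. Over the dye-balanced contrast these 7 ran from -1.06 to 0.18 with a median of -0.66, 6 lay below 0 and 0 passed the threshold. Once the displaced spots were put back, 1 of the 7 fell, Ttr, the plasma carrier transthyretin (-0.98, limma adjusted p = 0.0208). The part of this shift in the falls of the 8 enzymes was not tested. The medians of the macrophage, cholangiocyte, stellate, lymphocyte and endothelial lists lay between -0.38 and 0.785 on single arrays, and 0 of their genes passed in the same contrast, with the displaced spots left out or put back.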

How the data were processed

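Liver RNA of 6 mice was measured on 2-colour arrays against a chow pool. The authors deposited a ratio for each spot of each array, read here as log2, and for its unit, normalization, scanner software and background correction nothing is given in the sources used here. Medians over the probes of an array ran from -0.01 to 0.03. Of 22575 spots, 726 had no value and 561 were repeated controls, and the other 21288 probes were used. Without intensities no filter on dim probes was made. Precision is limited by the number of arrays. Genes were named by the platform annotation: 18658 spots have 1 symbol, 30 several and 3887 none, 18445 matched the gene table by Entrez number and 0 symbols needed an update. Averaging over the probes of each gene gave 19517 features. Group means were fitted with limma 3.58.1 in R 4.3.3, with all 6 arrays sharing the spread and Benjamini-Hochberg adjustment over all features, threshold 0.05. In the dye-balanced contrast the weights are 0.5 for fenofibrate and 0.25 for each of lovastatin and HFC. Displaced spots of HFC replicate 2 were set to missing, so that for 6 of the 8 genes HFC rests on 1 array, whose spread is assumed to be that of the other groups. To put them back, each block was rotated along the rows by the shift of highest correlation. It was taken against the mean of HFC replicate 1, lovastatin replicate 2 and both fenofibrate arrays, with the sterol genes left out of that search. Replicates are separate mice per the labels. Replicate numbers share no stated batch, and the deviations of same-numbered arrays correlated at -0.0241, -0.0001 and 0.0311. Python 3.11.15 with pandas 2.3.3, numpy 2.4.6 and matplotlib 3.10.9 made the tables and figures, and the fit was tested on simulated data. Named genes are the 8 enzymes, up to 4 genes of smallest p per sterol list, and the 5 nearest profiles. Mvd, Ggps1, Abcg8 and Ttr were singled out after their values were seen. The 8 enzymes and all lists were chosen with earlier results of these data known. Alternatives were values as deposited or put back, median centring, quantile normalization, single probes, the noisiest 10% of features left out, a robust prior, array weights, fits on the compared arrays alone, a replicate block and leaving out each array.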

Additional observations from a re-analysis of the deposited data

How the results depend on the processing

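Of 532 values of the 8 genes against the pool under other settings, 0 changed direction, 446 kept their side of the threshold, 47 lost it and 39 gained it. Calls were less stable than ratios, and the share of all features called moved too. For fenofibrate against the pool this share was 0.0462% as deposited, 0.164% put back, 0.564% without the noisiest features and 0.57% with array weights. It was 0.0% with single probes, a robust prior, a replicate block or the compared arrays alone. Put back, it was 0.0103% for lovastatin and 0.0154% for HFC against the pool. Quantile normalization gave 0.0205% and 0.0462%, and leaving out the noisiest features 0.251% and 0.114%. The number of genes past limma's threshold in the dye-balanced contrast, 6, was 2 with the values as deposited, 0 with a replicate block, 2 without HFC replicate 2 and lovastatin replicate 1 together, an alternative chosen after seeing the data, and 0 to 8 leaving out 1 array. For fenofibrate against the pool, 2, it was 1 as deposited, 4 put back, 6 with the noisiest 10% of features left out, 6 with array weights, and 0 with single probes, a robust prior, a replicate block, the compared arrays alone or both of those arrays left out, and 0 to 2 leaving out 1 array. For lovastatin against the pool, 0, it was 1 put back, 1 with quantile normalization, 5 with the noisiest features left out and 0 to 6 leaving out 1 array, the 6 without lovastatin replicate 2, where 4016 of 19020 features were called. For HFC against the pool, 0, it was 1 put back, 1 with quantile normalization, 2 with the noisiest features left out and 0 to 1 leaving out 1 array. It stayed at 0 in all drug comparisons, while without lovastatin replicate 2 the features called, 0 under every other setting, were 1401 of 19012 for lovastatin against HFC and 2235 of 18998 for fenofibrate against lovastatin. The features called in the dye-balanced contrast, 110, were 67 as deposited, 192 put back, 196 with quantile normalization, 230 with array weights, 346 with the noisiest left out, 0 with the block, and 0 to 966 leaving out 1 array. Of 396 differences between drug groups, none of them called, 35 changed sign. For fenofibrate against HFC, values as deposited gave -1.145 for Fdft1, -0.945 for Lss and -1.34 for Dhcr7, put-back spots -0.925 for Lss and 0.025 for Msmo1, quantile normalization 0.34 for Cyp51 and 0.86 for Msmo1, and the replicate block 0.0575 for Cyp51. Leaving out 1 array, Lss ran from -0.30 to 0.73, Cyp51 from -0.40 to 0.31 and Dhcr7 from -0.31 to 0.44. For lovastatin against HFC, values as deposited gave -1.28 for Fdft1, -0.555 for Lss, -0.925 for Cyp51, -1.735 for Msmo1 and -1.365 for Dhcr7, put-back spots -0.535 for Lss and -0.005 for Cyp51, quantile normalization 0.42 for Sqle, 0.48 for Tm7sf2 and 0.12 for Ebp, and leaving out both HFC replicate 2 and lovastatin replicate 1 0.28 for Sqle. Leaving out 1 array, Sqle ran from -0.31 to 0.11, Cyp51 from -0.13 to 0.17 and Ebp from -0.30 to 0.03. For fenofibrate against lovastatin, quantile normalization gave -0.28 for Fdft1, 0.075 for Msmo1 and -0.17 for Dhcr7, and leaving out both arrays -0.015 for Dhcr7. Leaving out 1 array, Lss ran from -0.905 to 0.125, Cyp51 from -0.42 to 0.29 and Dhcr7 from -0.35 to 0.40. The cause of these changes was not tested. The replicate numbers pair no samples by the labels or by their deviations.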
